A study of Mus musculus with 232 samples.

Results

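The 26S proteasome is the protease that degrades ubiquitinated proteins. Its 20S core is a stack of rings made of α subunits (Psma genes) and β subunits (Psmb genes), and the inner surface of the β rings carries the active sites. A 19S regulatory particle caps the core, with a ring of ATPases (Psmc genes) that unfold the substrate and non-ATPase subunits (Psmd genes), some of which bind or remove ubiquitin. Because each finished particle holds its subunits in fixed proportions, the complex is a standard example of genes that serve 1 structure. In embryonic stem cells (ESCs) the constitutive proteasome turns over short-lived regulators, and its promoters are known to respond to the transcription factor NRF1 (Nfe2l1) when proteasome activity is short.

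The proteasome subunit genes were taken as the protein-coding genes whose symbol is Psma, Psmb, Psmc or Psmd followed by digits alone, which gave 39 of the 42493 genes listed. They comprised 8 genes of the α ring, 11 of the β ring, 6 ATPases and 14 non-ATPase genes. The last include Psmd5, Psmd9 and Psmd10, which encode chaperones of base assembly and are called subunit genes here by the symbol rule alone. Left out by that rule were Psmc3ip, which encodes a meiotic recombination factor and no proteasome subunit, and 4 pseudogenes. Genes averaging 5 counts or more per cell numbered 11186, among them 37 of the 39 subunit genes. Psmb9 and Psmb11 did not pass this filter.

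Single mouse ESCs were grown in DMEM with serum, LIF and 2i (PD0325901 and CHIR99021) and captured on a Fluidigm C1 circuit 24 h after transfection. Dgcr8-/- cells, which lack a protein needed to process most miRNAs, were mock-transfected, transfected with a miR-294 mimic or transfected with a let-7 mimic. Wild-type (WT) V6.5 cells were captured as well. Mock cells received no mimic, and the study's methods do not say whether the WT cells were transfected. Genotype in mock over WT may therefore not be told apart from transfection, nor either mimic from the presence of a small RNA. The let-7 mimic is called let-7i in the sample titles, let-7b in the series description and let-7c in the study. Cells with poor libraries and transfected cells without lower target levels had been removed by the authors, so that the cells analysed were selected. No label names a separate culture and 1 circuit was used for each condition. Each condition was therefore 1 sample made of cells, circuit and condition cannot be told apart, and no test between conditions was made. The SD and ranges below describe the cells of 1 capture.

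Each of the 182 cells deposited had been sequenced in 1 or 2 runs. In 3 pairs of let-7 cells and 1 pair of miR-294 cells the counts of the 2 cells of a pair differed by no more than those of 2 runs of the same cell (chi-square per gene 1.82 to 5.42, against 1.27 to 6.19 for runs and 35.4 to 323 for other pairs of cells), and each pair was counted as 1 cell. This left 60 mock, 16 WT, 45 let-7 and 57 miR-294 cells. Of the miR-294 cells, 3 carry a title of another form (MIR_294) with the same genotype label and were included. In 1 let-7 and 1 WT cell the 2 runs differed as 2 different cells do (chi-square per gene 98.3 and 179). Both were kept, and the correlations that rest on sums over a ring are also given without them. Total counts ran from 513521 to 3979270 per cell. The targeted gene checks the labels only in part, because Dgcr8 was still counted in 54 of 60 mock cells (mean normalized count 55.6 ± 126) and in 16 of 16 WT cells (128 ± 178), and counts per gene do not separate the deleted part. Of the 9 ESC markers, the median marker was counted in 95.6% to 100% of the cells of a condition. Fibroblast feeder markers summed to a mean normalized count of 0.131 to 14.9 over 7 genes, and no such gene was counted in over 6.67% of cells.

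The mature miRNAs, from RefSeq on build GRCm38.p6, are shown because their seed (bases 2 to 8, in capitals) sets which mRNAs they pair with. All 3 let-7 members named in the sources carry the same seed, so that the matches below hold for each of them.
mmu-miR-294-3p (chr7:3220691-3220712, plus strand): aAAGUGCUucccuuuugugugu
mmu-let-7c-5p (chr15:85706616-85706637, plus strand): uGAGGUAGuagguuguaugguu
mmu-let-7i-5p (chr10:122985698-122985719, minus strand): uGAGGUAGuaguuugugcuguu
mmu-let-7b-5p (chr15:85707325-85707346, plus strand): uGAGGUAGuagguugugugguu
The annotated 3′UTRs (Gencode M21) of the 37 subunit genes past the filter held no match to the let-7 seed (CTACCTC), against 11.3% of 10304 genes past the filter with a 3′UTR. A match to the miR-294 seed (AGCACTT) was found for 2 of the 37, Psma3 and Psmd5, against 19.5% of all genes. The longest 3′UTR of a subunit gene had a median of 294 bases, against 1199 bases over all genes, and a shorter UTR offers fewer positions for a match. A match is a description of the sequence and not a site. The matches in both genes are printed on the strand of the mRNA with the match in capitals.
Psma3, base 1401 of a 3′UTR of 1952 bases: ccatccagtacAGCACTTgaaacaaaaac
Psmd5, base 1769 of a 3′UTR of 2842 bases: gccacagctccAGCACTTggtttcctgag
The log2 ratio of mean normalized counts, miR-294 over mock, was -0.08 for Psma3 and -0.29 for Psmd5, beside a median of -0.47 over all genes with a match and of -0.21 over those without.

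NRF1 and NRF2 bind an antioxidant-response-type motif, here searched as TGACNNNGC on both strands from 250 bases before to 50 bases after the RefSeq start sites. Of the 39 subunit genes, 32 had such a window, and 5 of them (15.6%) held the motif, against 14% of all 27025 genes in the table. The share among the subunit genes was thus near the background. The 5 stretches, with GRCm38.p6 coordinates, are shown because NRF1 is the known regulator of these genes. They are printed on the strand of the motif, in capitals, which begins at -47, -9 and -31 from the start site in Psmb5, Psmb6 and Psmd9 and lies farther upstream on the opposite strand in Psmc6 (-227) and Psmd12 (-247).
Psmb5 (chr14:54618023-54618052): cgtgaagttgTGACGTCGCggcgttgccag
Psmb6 (chr11:70525338-70525367): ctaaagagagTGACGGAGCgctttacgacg
Psmd9 (chr5:123228149-123228178): atctagccggTGACCCCGCccacttccaag
Psmc6 (chr14:45329587-45329616): tgagcaatgccTGACTTAGCtactggctgg
Psmd12 (chr11:107479278-107479300): gggggcaaatgTGACACAGCaga

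Proteasome transcripts were abundant and present in nearly every cell. Summed over the 39 genes, they made up a median of 1.02% of the counts of a mock cell, with a range of 0.437% to 1.53%. The share was 1.06% in WT cells (0.732% to 1.31%), 0.896% in let-7 cells (0.287% to 1.31%) and 1.22% in miR-294 cells (0.743% to 1.71%). The miR-294 cells were thus highest and the let-7 cells lowest, and the ranges of all 4 conditions overlapped. As mean ± SD over cells the share was 1.02% ± 0.191 in 60 mock cells, 1.09% ± 0.147 in 16 WT cells, 0.896% ± 0.214 in 45 let-7 cells and 1.2% ± 0.187 in 57 miR-294 cells. The cytosolic chaperonin CCT, another complex of fixed proportions, took 0.700% in mock, 0.811% in WT, 0.431% in let-7 and 0.753% in miR-294 cells. Ribosomal proteins took 4.82%, 5.61%, 4.76% and 5.93% in the same order. This name stands here and below for the 98 protein-coding genes whose symbol begins with Rpl or Rps and a digit, 90 of them past the filter. That rule puts no limit on the rest of the symbol, so the list can also hold genes that encode no ribosomal protein. The 9 ESC markers, which were also lowest in let-7 and highest in miR-294 cells, summed to mean normalized counts of 9182 in mock, 7971 in WT, 5681 in let-7 and 10085 in miR-294 cells, and their part in the difference was not tested. A share of the counts also moves when other transcripts move, and the number of proteasomes per cell was not measured.

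**Figure D1:**
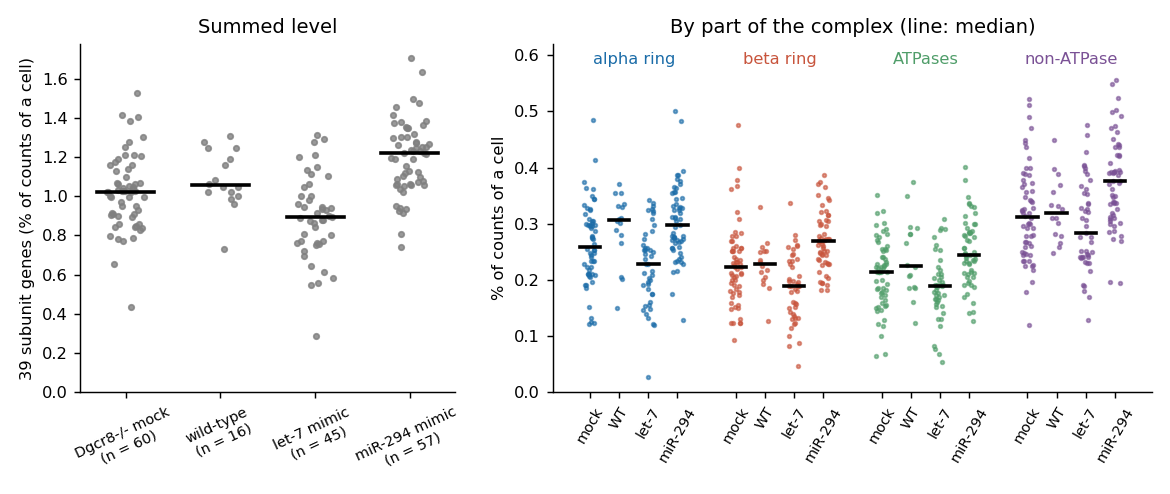
Summed counts of the 39 subunit genes as a percentage of all counts of a cell, 1 point a cell and a line at the median, for all subunit genes (left) and for each part of the complex (right). The median was 1.02% in mock, 1.06% in WT, 0.896% in let-7 and 1.22% in miR-294 cells, with overlapping ranges.

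Each part of the complex was lowest in let-7 cells. The α ring took a median of 0.259% of counts in mock, 0.306% in WT, 0.229% in let-7 and 0.297% in miR-294 cells. For the β ring the shares were 0.223%, 0.228%, 0.189% and 0.269% in that order. The ATPases took 0.215%, 0.225%, 0.189% and 0.245%, and the non-ATPase genes 0.312%, 0.319%, 0.284% and 0.375%. The miR-294 cells were highest for each part but the α ring, which was highest in WT cells. Of the 39 genes, 21 had a count in every one of the 178 cells, and 30 had one in at least 90% of cells.

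Levels of different genes are compared per length, as deposited FPKM averaged over cells. In mock cells the median subunit gene past the filter stood at 230 FPKM, against 11.9 over all genes, and 30 of the 37 lay above the 90th percentile of all genes (95.1 FPKM). Medians by part were 404 for the α ring, 334 for the β ring, 256 for the ATPases and 145 for the non-ATPase genes. The order of the genes was much alike between conditions, with a Spearman correlation of the mean FPKM over the 37 genes of 0.91 to 0.97 for the 6 pairs of conditions, beside 0.78 to 0.93 over all genes. These correlations are across genes, which are not independent.

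Subunits that occur once per ring had unequal transcript levels. Among the 7 constitutive α genes (Psma1 to Psma7) the highest mean FPKM in mock cells was 2.11 times the lowest, and among the 6 ATPases 1.79 times. Among the 7 constitutive β genes it was 6.19 times, from 150.1 ± 119 FPKM (SD, n = 60) for Psmb4 to 929.6 ± 506 for Psmb6. The 3 highest genes were Psmb6, Psmb3 (579.7 ± 308) and Psma3 (484 ± 213). Psmb3 shares 66.8% and Psma3 27.3% of the 31-base stretches of their protein-coding transcripts with other annotated genes, so that their counts depend on how reads were divided.

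The lid, which holds the deubiquitinase Psmd14 (RPN11) and the subunits around it, contained the widest gap in mock cells. Psmd14 stood at 252 ± 167 FPKM in mock cells and Psmd3, an obligate lid subunit, at 17.5 ± 31.5, 14.4 times lower. Psmd3 was the lowest of 8 lid genes in all 4 conditions, with 14.8 FPKM in WT, 27.7 in let-7 and 24.8 in miR-294 cells. None of its protein-coding 31-base stretches is shared with another gene, and it was counted in 47 of 60 mock cells. The other low genes were Psmd9 (7.91 ± 13.2 FPKM), a chaperone of base assembly that is absent from the finished particle, and the immunoproteasome gene Psmb8 (8.13 ± 32.5). Psmd10 (31.5 ± 39.5 FPKM), another base chaperone known as gankyrin, and Psma8 (26.5 ± 40.8), the α subunit known from testis, were also low.

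By the ratio of means, few subunit genes differed between conditions when read against all genes. A gene was set apart when the ratio of its mean normalized counts (with a pseudocount of 1) was at least 1.5-fold. With let-7, 1 of 37 subunit genes was higher than in mock cells by this measure, where 30.2% of all genes were, and 1 was lower, where 16.6% were. With miR-294, 1 was higher (10.8% of all genes) and 1 lower (33.6%). In mock over WT cells 6 were higher (41.7%) and 1 lower (16.8%). Among genes averaging 100 counts or more per cell, which passed the fold less often, let-7 over mock gave 0 of 31 subunit genes higher (14.6% of all such genes) and 1 lower (14.1%). With miR-294 none of the 31 was higher (4.97%) or lower (22.4%), and in mock over WT 4 were higher (29.4%) and 0 lower (12.5%). With the mean of log2 values over cells in place of the ratio of means, 2 of the 37 were higher and 7 lower with let-7 (23.8% and 19.5% of all genes). By that measure 4 were higher and 0 lower with miR-294 (16.5% and 20.2%), and 5 higher and 3 lower in mock over WT (33.2% and 18.9%).

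The median log2 ratio of the subunit genes was -0.12 for let-7 over mock, 0.02 for miR-294 over mock and 0.24 for mock over WT. All genes together had medians of 0.17, -0.27 and 0.35. Genes averaging 100 counts or more, as 31 of the 37 subunit genes do, had medians of -0.00, -0.17 and 0.16, so that the subunit median in mock over WT lay above that of these genes and below that of all genes. Relative to the medians of all genes, let-7 over mock gave 6 of 37 subunit genes at least 1.5-fold lower (Psma5, Psmb2, Psmb3, Psmb7, Psmd6 and Psmd13, where 21.6% of all genes were) and 1, Psmd3, higher (23.9%). With miR-294 there were 6 genes higher (Psma7, Psmb4, Psmc4, Psmd3, Psmd9 and Psmd14, where 19% of all genes were) and 1, Psmb8, lower (23.5%). In mock over WT, 3 were higher (Psmb8, Psmb10 and Psmd8, 32%) and 4 lower (Psma4, Psma8, Psmd6 and Psmd9, 27.3%). Each of these 6 counts is a smaller share of the subunit genes than of all genes. The 3 comparisons share the mock cells.

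**Figure D2:**
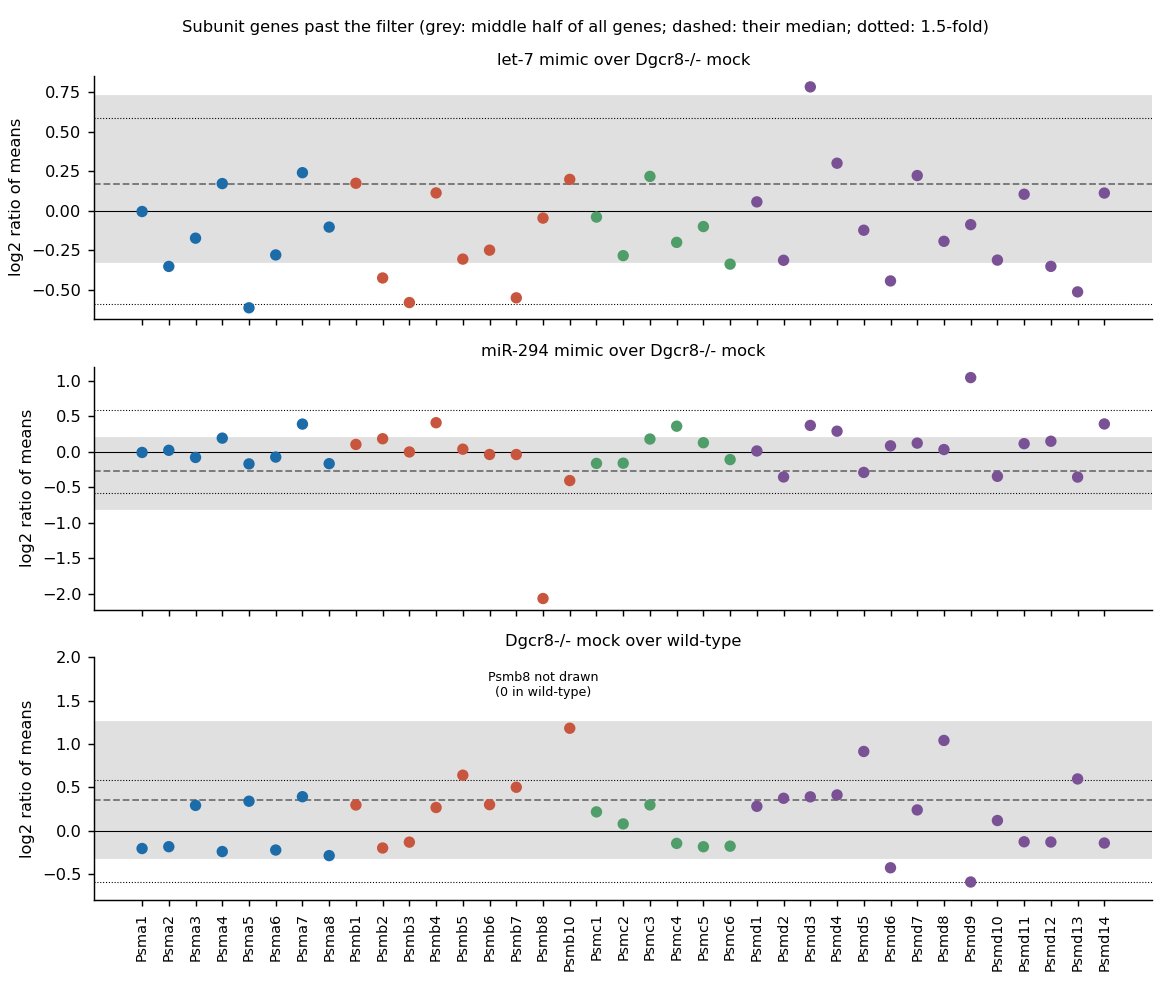
Log2 ratio of mean normalized counts for each of the 37 subunit genes past the filter in 3 comparisons, coloured by part (α ring blue, β ring red, ATPases green, non-ATPase purple). Grey spans the interquartile range of all genes, the dashed line is their median and dotted lines mark 1.5-fold. Most points lie between the dotted lines, and Psmb8 is not drawn where WT cells had no count.

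The α ring forms the outer gate of the core. Gene coordinates here and below are those of GRCm38. Normalized counts of Psma5 in mock cells ran from 68.8 to 1777 with a median of 557, and in WT cells from 194 to 1153 with a median of 483. Over let-7 cells it ran from 6.38 to 982 with a median of 442, and over miR-294 cells from 53.8 to 1913 with a median of 562. As mean ± SD, Psma5 (chr3:108256926-108279974) stood at 681 ± 373 in 60 mock and 446 ± 265 in 45 let-7 cells, a ratio of 0.654 (log2 -0.61). It was the only α gene past 1.5-fold in a comparison, and 16.6% of all genes were that much lower with let-7. The ranges of mock and let-7 cells overlapped over most of their width. Psma5 shares 64% of its protein-coding 31-base stretches with other genes. Among the other 7 α genes the log2 ratio ran from -0.35 (Psma2) to 0.24 (Psma7) with let-7, from -0.17 (Psma8) to 0.39 (Psma7) with miR-294, and from -0.29 (Psma8) to 0.39 (Psma7) in mock over WT.

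Psmb5, Psmb6 and Psmb7 encode the chymotrypsin-like, caspase-like and trypsin-like active sites of the constitutive core. Psmb5 ran from 32.9 to 1242 with a median of 339 normalized counts over mock cells and from 46.9 to 538 with a median of 228 over WT cells. The let-7 cells ran from 0 to 877 with a median of 316 and the miR-294 cells from 80.1 to 866 with a median of 405. Psmb5 (chr14:54614119-54618022) had a mean of 409 ± 290.0 in mock and 262 ± 139 in WT cells, 1.56-fold higher in mock cells (log2 0.64). All 16 WT values lay inside the range of the mock cells. The log2 ratio of Psmb5 was -0.30 with let-7 and 0.04 with miR-294. It shares 71.7% of its protein-coding stretches with other genes, the largest share of any subunit gene.

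The normalized count of Psmb6 ran from 300.1 to 3849.6 with a median of 774 in mock cells and from 445 to 1284 with a median of 726 in WT cells. It ran from 97.5 to 2035 with a median of 811 in let-7 cells, and from 497 to 1894 with a median of 1004 in miR-294 cells. Means of Psmb6 (chr11:70525367-70527858) were 1018 ± 638 in mock, 826 ± 287 in WT, 857 ± 374 in let-7 and 992 ± 335 in miR-294 cells. No ratio reached 1.5-fold, at log2 -0.25 with let-7, -0.04 with miR-294 and 0.30 in mock over WT. Normalized counts of Psmb7 in mock cells ran from 18.9 to 1121 with a median of 301.1, and in WT cells from 4.18 to 507 with a median of 288. Over let-7 cells it ran from 9.63 to 728 with a median of 246, and over miR-294 cells from 32.9 to 779.9 with a median of 339. Psmb7 (chr2:38588036-38644087) had means of 371 ± 217, 261 ± 136, 253 ± 168 and 361 ± 158 in mock, WT, let-7 and miR-294 cells, with log2 ratios of -0.55 with let-7, -0.04 with miR-294 and 0.50 in mock over WT. For both genes the 4 conditions overlapped.

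The immunoproteasome replaces these 3 active subunits by Psmb8 (LMP7), Psmb9 (LMP2) and Psmb10 (MECL-1), which interferon is known to induce. Psmb8 (chr17:34197721-34201454) was counted in 7 of 60 mock cells (11.7%, exact 95% interval 4.82% to 22.6%), in 0 of 16 WT cells, which allows a share of up to 18.8% by the limit of 3 counts (exact upper bound 20.6%), in 18 of 45 let-7 cells (40%, 25.7% to 55.7%) and in 3 of 57 miR-294 cells (5.26%, 1.10% to 14.6%). These intervals cover counting error only. With every cell thinned to 500000 counts the shares were 11.7%, 0%, 37.8% and 3.51%. More let-7 cells held Psmb8 counts, mostly at low levels, since 5 of the 18 stood at a normalized count of 44.4 or more and the next at 20.7, below the lowest of the 7 mock cells (21.5). The highest cell stood at 481 in mock, 214 in let-7 and 150.1 in miR-294 cells.

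The mean of Psmb8 was 19 ± 74 in mock, 18.3 ± 45.9 in let-7 and 3.76 ± 21.4 in miR-294 cells, with log2 ratios to mock of -0.05 and -2.07. The mean rested on a few cells. Summed over cells it stood at 10.8 CPM in mock cells (exact Poisson 95% interval 10.2 to 11.4) and at 0 in WT cells. Set against a floor of 3 counts over the WT cells, the summed counts alone give a ratio of 88.1. That ratio is no bound on the difference between conditions. The exact upper bound on the share of WT cells with a count, 20.6% for 16 cells, lies above the 11.7% seen in mock cells. In mock cells 398 of the 1130 Psmb8 counts came from 1 cell. The opposite-strand gene Gm20496 overlaps 14.7% of the Psmb8 exon bases, and the libraries do not mark strand.

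Psmb9 (chr17:34181987-34187764), which failed the filter, was counted in 3 of 60 mock, 0 of 16 WT, 4 of 45 let-7 and 2 of 57 miR-294 cells. Psmb8 and Psmb9 were counted together in 1 mock cell, 3 let-7 cells and no miR-294 or WT cell. Psmb10 ran from 0 to 454 with a median of 17.2 normalized counts over mock cells and from 0 to 49.6 with a median of 21.4 over WT cells. The let-7 cells ran from 0 to 351 with a median of 7.74 and the miR-294 cells from 0 to 235 with a median of 19.1. Psmb10 (chr8:105935735-105938444) was 2.27-fold higher in the mean of mock cells (44.3 ± 87.7) than of WT cells (19 ± 16.9, log2 1.18), although its median cell was lower in mock. On the median over cells the log2 ratio was -0.30 and as a mean of log2 values -0.04, so that the direction depended on the summary. The other gene below the filter, Psmb11, encodes the β5t subunit known from the thymus and had means of 0.174 to 0.534.

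The 6 ATPases, which form the unfolding ring of the base, showed no ratio of 1.5-fold in any comparison. Among genes averaging 100 counts or more, as all 6 do, 14.6% were higher and 14.1% lower with let-7. With miR-294 these shares were 4.97% and 22.4%, and in mock over WT 29.4% and 12.5%. The log2 ratios of the ATPases ran from -0.34 (Psmc6) to 0.22 (Psmc3) with let-7, from -0.16 (Psmc1) to 0.36 (Psmc4) with miR-294 and from -0.18 (Psmc5) to 0.30 (Psmc3) in mock over WT. Psmc4 had the largest of these relative to all genes, with means of 625 ± 370.0 in mock and 804 ± 378 in miR-294 cells.

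Of the 14 non-ATPase genes, Psmd3 was past 1.5-fold higher with let-7 (as were 30.2% of all genes) and Psmd9 with miR-294 (10.8%). In mock over WT, Psmd5, Psmd8 and Psmd13 were higher (41.7%) and Psmd9 lower (16.8%). Of the 9 β ring genes past the filter, 0 passed the fold with let-7, where 30.2% of all genes were higher and 16.6% lower. With miR-294 1, Psmb8, was lower (33.6% of all genes). In mock over WT 3 (Psmb5, Psmb8 and Psmb10) were higher (41.7%). The normalized count of Psmd3 ran from 0 to 482 with a median of 15.4 in mock cells and from 0 to 211 with a median of 13.7 in WT cells. It ran from 0 to 477 with a median of 24.7 in let-7 cells, and from 0 to 566 with a median of 45.2 in miR-294 cells. The mean of Psmd3 (chr11:98682554-98695979) was 96 ± 131 in let-7 and 55.4 ± 97.3 in mock cells, 1.72-fold higher (log2 0.78). In counts the medians of the 2 conditions lay closer together than the means, with the let-7 cells again higher, and the ranges overlapped. Normalized counts of Psmd9 in mock cells ran from 0 to 339 with a median of 2.38, and in WT cells from 0 to 315 with a median of 19.5. Over let-7 cells it ran from 0 to 359 with a median of 1.58, and over miR-294 cells from 0 to 417 with a median of 54.2. Psmd9 (chr5:123169413-123250131) was 2.07-fold higher in miR-294 (68.8 ± 80.8) than in mock cells (32.8 ± 57.8, log2 1.05). It was counted in 47 of 57 miR-294 and 14 of 16 WT cells against 32 of 60 mock and 26 of 45 let-7 cells, and in 75.4%, 87.5%, 50% and 46.7% when thinned to one total. In mock over WT its log2 ratio was -0.59. Psmd9 was thus counted in a larger share of miR-294 and WT cells than of mock and let-7 cells, also with each cell thinned to one total. An opposite-strand gene, Gm26745, overlaps 25.5% of its exon bases.

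Psmd8, Psmd13 and Psmd5 were higher in mock than in WT cells. Psmd8 ran from 21 to 1509.5 with a median of 274 normalized counts over mock cells and from 1.5 to 387 with a median of 133 over WT cells. The let-7 cells ran from 8.73 to 979 with a median of 250.1 and the miR-294 cells from 90.6 to 1070.3 with a median of 327. Psmd8 (chr7:29174188-29180701), the lid subunit RPN12, had means of 337 ± 281 and 163 ± 137 in mock and WT cells, a 2.06-fold difference (log2 1.04). The lowest WT cell lay below every mock cell, and the highest WT cell lay well inside the mock range. The normalized count of Psmd5 ran from 0 to 2529 with a median of 274 in mock cells and from 0.75 to 531 with a median of 166 in WT cells. It ran from 0 to 929 with a median of 306 in let-7 cells, and from 1.1 to 1036 with a median of 216 in miR-294 cells. Psmd5 (chr2:34849734-34874968), a base chaperone, had means of 340.2 ± 368 and 180.0 ± 158 (log2 0.91). Normalized counts of Psmd13 in mock cells ran from 0 to 625 with a median of 79.4, and in WT cells from 0 to 425 with a median of 50.8. Over let-7 cells it ran from 0 to 347 with a median of 42.5, and over miR-294 cells from 0 to 389 with a median of 55.4. Psmd13 (chr7:140881968-140898643), the lid subunit RPN9, had means of 116 ± 133 and 76.5 ± 106 (log2 0.60), at the edge of the fold used. Its exons overlap Sirt3 on the opposite strand over 10.1% of their bases. The exact Poisson interval of the summed count was at most 11.4% of the value either way for every subunit gene past the filter in every condition, save Psmb8 in WT cells, with a median of 1.36%. It covers the count summed over the cells of a condition and not the error of single cells.

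The spread between cells was smaller for subunit genes than for most genes of like level. The coefficient of variation (CV) of each gene was compared with a running median over genes of neighbouring mean. In mock cells 31 of 37 subunit genes lay below that trend, against 49.8% of all genes. In WT cells 28 of 36, in let-7 cells 34 of 37 and in miR-294 cells 27 of 37 did. The median log2 ratio of CV to trend was -0.17, -0.32, -0.28 and -0.20 in mock, WT, let-7 and miR-294 cells, and 0.00 over all genes. CCT genes stood at -0.32, -0.13, -0.26 and -0.02, and ribosomal protein genes at -0.57, -0.49, -0.77 and -0.50. Gene by gene the median of the subunit genes thus lay less far below the trend than that of the ribosomal list, as defined above, in each condition. The summed share went the other way, with a CV over cells of 0.187, 0.135, 0.239 and 0.156 for the subunit genes and of 0.266, 0.244, 0.246 and 0.198 for the ribosomal proteins in mock, WT, let-7 and miR-294 cells. In let-7 cells the 2 values were close. With sums of normalized counts the CVs were 0.217, 0.155, 0.208 and 0.180 for the subunit genes. For the ribosomal proteins they were 0.273, 0.222, 0.198 and 0.196, so that the order did not hold in let-7 cells.

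**Figure D3:**
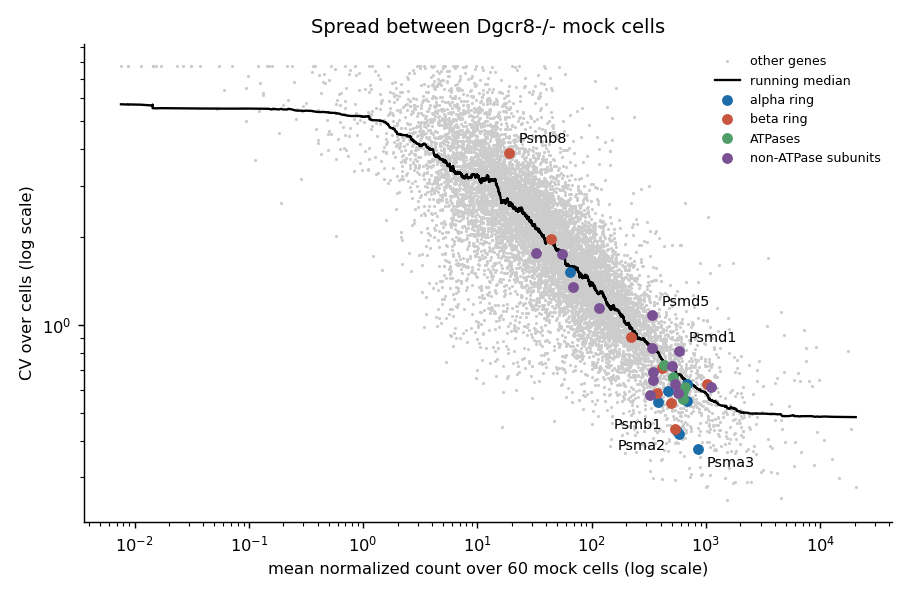
CV over 60 mock cells against the mean normalized count, both on log axes, for all genes (grey), their running median (line) and the subunit genes by part. Of the 37 subunit genes 31 lie below the line, and Psma3 at a CV of 0.374 lies farthest below.

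In mock cells the α ring was the most even part, with all 8 genes below the trend and a median log2 ratio of -0.43. Psma3 (CV 0.374 against a trend of 0.604), Psmb1 (0.440 against 0.703) and Psma2 (0.423 against 0.674) were the most even genes in mock cells. They lay below the trend in the other 3 conditions as well, at log2 ratios of -0.39 to -0.62 for Psma3, -0.52 to -0.71 for Psmb1 and -0.42 to -0.82 for Psma2. Psma3 ran from 303 to 1716 with a median of 835 normalized counts over mock cells and from 467 to 1246 with a median of 594 over WT cells. The let-7 cells ran from 94 to 1574 with a median of 799 and the miR-294 cells from 109 to 1429 with a median of 787. The widest spread relative to the trend was found for Psmb8 (CV 3.90 against 2.59), Psmd5 (1.08 against 0.842) and Psmd1 (0.815 against 0.674), the last a large scaffold subunit of the base. Psmd1 was above the trend in all 4 conditions, at log2 ratios of 0.27, 0.24, 0.02 and 0.41 in mock, WT, let-7 and miR-294 cells, whereas Psmd5 was below it in WT and let-7 cells, at -0.20 and -0.12.

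Although even in level, the subunit genes covaried only weakly from cell to cell. The median Spearman correlation over the 666 pairs of subunit genes was 0.06 in 60 mock cells, 0.07 in 45 let-7 cells and 0.07 in 57 miR-294 cells, and it was 0.02 over 630 pairs in 16 WT cells. Over all pairs of genes it was 0.02, 0.02, 0.01 and 0.00 in the same order. CCT genes had medians of 0.12, 0.05, 0.15 and 0.20, and ribosomal protein genes 0.25, 0.23, 0.27 and 0.29. Subunit genes thus stood a little above all genes and far below the ribosomal proteins. Removing the number of genes detected per cell left medians of 0.07, 0.07, 0.07 and 0.02. The cells of a condition share a circuit, and correlations this weak are given as a description.

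**Figure D4:**
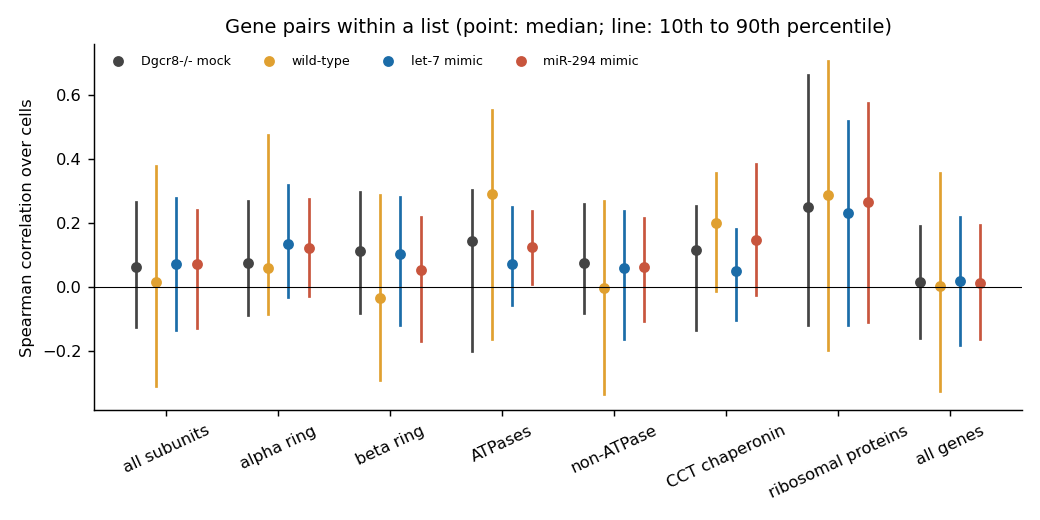
Spearman correlation over cells between genes of a list, with the median over pairs (point) and the 10th to 90th percentile (line), by condition. The medians of the subunit genes lie at 0.06 in mock cells and 0.02 in WT cells, near those of all genes, and those of the ribosomal proteins at 0.23 to 0.29.

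Values of single pairs differed widely between conditions. The highest pairs in mock cells were the ATPase Psmc4 with the ubiquitin receptor Psmd4 (0.59), Psma7 with Psmb3 (0.58) and Psmb2 with Psmb6 (0.48). Psmc4 and Psmd4 stood at -0.16 in WT, 0.29 in let-7 and 0.02 in miR-294 cells. Psma7 and Psmb3 stood at 0.09, 0.44 and 0.13, and Psmb2 and Psmb6 at 0.12, -0.03 and 0.27. The lowest pair in mock cells, Psma3 with Psmb7 (-0.35), stood at 0.40 in miR-294 cells. These pairs were picked for their mock values, which are a description.

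Sums over a ring carry more counts than single genes. In let-7 cells the summed shares of the α ring and β ring genes covaried closely (Spearman 0.79, n = 45), against -0.06 in 60 mock cells, 0.04 in 16 WT cells and 0.36 in 57 miR-294 cells. In let-7 cells 86.1% of the 72 single α and β gene pairs had a correlation above 0, with a median of 0.16, against 52.8% and 0.01 in mock cells. The value in let-7 cells was 0.86 in the cells of 1 run, 0.78 after thinning, 0.73 with sums of normalized counts and 0.80 without the let-7 cell whose runs differed. In WT cells it was -0.04 without the cell whose runs differed, 0.31 with sums of normalized counts and 0.44 as Pearson's correlation of log2 values, for which the let-7 cells had 0.81. The core as a whole covaried with the regulatory particle at 0.45 in mock, 0.44 in WT, 0.46 in let-7 and 0.47 in miR-294 cells. All 39 genes covaried with CCT at 0.53, 0.47, 0.49 and 0.42. In let-7 cells the α and β sums also covaried with the summed ribosomal proteins, at 0.42 for each ring, whereas in mock cells this was -0.07 for the α and 0.65 for the β ring. The part of the ribosomal share in the correlation between the rings was not tested. With the number of genes detected, the 2 ring sums correlated at 0.08 and 0.04 in let-7 cells.

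**Figure D5:**
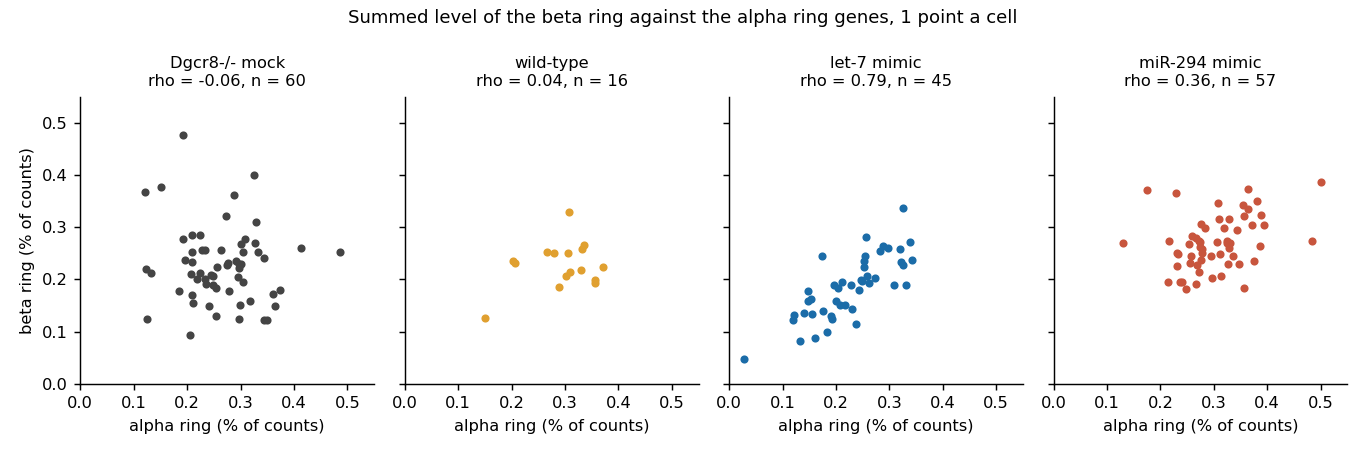
Summed β ring against summed α ring counts as percentages of the counts of a cell, 1 point a cell, 1 panel a condition with its Spearman correlation. The points of the let-7 cells rise together (0.79), and those of the mock cells do not (-0.06).

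Several genes that act on the proteasome had larger ratios than most of its subunits. Of 5 activator and inhibitor genes, 2 were past 1.5-fold lower with let-7 (16.6% of all genes) and 2 lower with miR-294 (33.6%), and in mock over WT 3 were higher (41.7%) and 1 lower (16.8%). The activator PA28αβ, which opens the core and is known from interferon responses, is encoded by Psme1 and Psme2. Psme2 had means of 249.8 ± 157 in mock, 64 ± 55.4 in WT, 268 ± 179 in let-7 and 95.9 ± 101 in miR-294 cells, and Psme1 of 171 ± 134, 54.6 ± 49.3, 224 ± 197 and 104 ± 97.2. Mock cells thus stood above WT cells by log2 1.95 and 1.63, and miR-294 over mock was -1.37 and -0.71. Psme3, the nuclear activator PA28γ, was lower with let-7 (log2 -1.18) and in mock over WT (-0.99), and Psme4 (PA200) was lower with let-7 (-1.48). The inhibitor Psmf1 had log2 ratios of -0.00 with let-7, 0.12 with miR-294 and 0.90 in mock over WT.

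Of the 4 assembly chaperones analysed here, Psmg1, Psmg2 and Psmg3, which build the α ring, were all at least 1.5-fold lower with let-7 (log2 -0.78, -1.04 and -0.59), as were 16.6% of all genes. Pomp, which brings the core together, was at 0.46 with let-7 and 0.87 with miR-294, and at -0.74 in mock over WT. With miR-294 2 of the 4, Psmg1 (0.72) and Pomp, were past 1.5-fold higher, as were 10.8% of all genes. In mock over WT 2, Psmg2 (-0.59) and Pomp, were lower (16.8%). Pomp had means of 139.9 ± 91.8 in mock and 256 ± 101 in miR-294 cells.

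Nfe2l1, which encodes NRF1, had means of 82.1 ± 119 in mock, 48.2 ± 65.7 in WT, 155 ± 272 in let-7 and 109 ± 129.6 in miR-294 cells, with log2 ratios of 0.91 with let-7 and 0.76 in mock over WT. Of the 4 genes listed for the transcription of proteasome genes, Nfe2l1 among them, 2 were past 1.5-fold higher with let-7 (30.2% of all genes). With miR-294 2 were lower (33.6%), and in mock over WT 3 were higher (41.7%). The glycanase Ngly1 was at 1.34 with let-7, -1.45 with miR-294 and 0.09 in mock over WT. Its level was low, with means of 11.8 in mock, 31.6 in let-7 and 3.70 in miR-294 cells. In the same order of comparisons Nfe2l2 was at -0.02, -0.81 and 0.62, and the protease Ddi2 at 0.29, -0.16 and 0.64. The ubiquitin receptor Adrm1 (RPN13) was at 1.57 in mock over WT, with means of 227 ± 209 and 75.7 ± 86.2, and at 0.34 with let-7. The adaptor Ecpas was at -1.81 with miR-294 and 1.78 in mock over WT, and the deubiquitinase Uchl5 at -0.62 in mock over WT. Of the 6 bound factors and other subunits listed, 0 passed 1.5-fold with let-7, where 30.2% of all genes were higher and 16.6% lower. With miR-294 1 was lower (33.6%), and in mock over WT 2 were higher (41.7%) and 1 lower (16.8%). The others listed, Sem1, Usp14 and Ube3c, passed it in no comparison.

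Among 12 genes of ubiquitin and its delivery, 1 was past 1.5-fold with let-7 (Ubqln2, log2 0.92, higher, as were 30.2% of all genes) and 0 with miR-294, where 10.8% of all genes were higher and 33.6% lower. In mock over WT, the unfoldase Vcp (1.28) and Ubqln2 (0.85) were higher, and Uba1 (-0.63), Nploc4 (-0.63), Rad23b (-1.19), Ubqln1 (-1.33) and Ubqln4 (-0.73) lower, beside 41.7% and 16.8% of all genes. The 8 CCT genes all lay below 0 with let-7, from -0.85 (Cct3) to -0.31 (Cct4), and 3 of them were past 1.5-fold lower. Of the 37 subunit genes 25 lay below 0 and 1 was past 1.5-fold lower, while 59.1% of all genes lay above 0 and 16.6% were past 1.5-fold lower.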

How the data were processed

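Single-cell RNA-seq of mouse ESCs was analysed from gene tables deposited per run. The authors aligned and quantified reads with RSEM on GRCm38 with Gencode M4 and deposited expected counts and FPKM per gene, which are estimates that divide reads shared between genes. Nextera XT libraries keep no strand, so that genes overlapping on opposite strands cannot be told apart. Symbols came from Gencode M21 (41674 of 42493 IDs matched), and miRNA and promoter sequences from RefSeq.

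For cells sequenced in more than 1 run the expected counts of all runs were added, then rounded to whole numbers and divided by median-of-ratios size factors over 862 genes counted in every cell. Pairs of cells as alike as 2 runs of one cell were counted as 1. The limit was the highest run pair, which had to be taken without the 2 cells whose runs differed by over 10 times the median. Genes with a mean of 5 counts were kept (11186). A difference is the log2 ratio of mean normalized counts plus a pseudocount of 1, which understates ratios of low genes. Levels are compared between genes only as FPKM. The spread was set against a running median over genes of neighbouring mean, and correlations are Spearman's over cells. Shares were recomputed with each cell thinned to 500000 counts. Intervals are exact binomial or Poisson 95% intervals and cover counting error only, since the reads carry no molecular identifiers. Floors are 3 counts over a group. Each condition is 1 capture, so that no test was made, and the steps were tested on simulated counts.

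The genes named are the active-site subunits and their immunoproteasome counterparts, all subunit genes past 1.5-fold, the 3 highest and 3 lowest in FPKM, the 3 widest and 3 narrowest relative to the trend, and those that failed the filter. Other genes come from lists of proteasome-associated, ubiquitin and chaperonin genes. Members and lists were chosen with earlier results of these data known, and Psmg4 and Paaf1 were not analysed here. A further listed gene is not reported here. Alternatives covered scaling, summary, pseudocount, filter, fold, runs and depth. Python 3.11.15, numpy 2.4.6, scipy 1.17.1, pandas 2.3.3, matplotlib 3.10.9 and, for TMM factors, edgeR 4.0.16 in R 4.3.3 were used.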

Additional observations from a re-analysis of the deposited data

How the results depend on the processing

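Of 215 alternative values of the main counts, levels and correlations, 175 stayed within their limits (a count within 1.5 times, another value within its spread) and 40 moved. The spread is the SD over cells, genes or gene pairs, which is a wide limit, and a change of sign within it was counted as staying. A reversal was counted only for single genes past 1.5-fold, so that none could be counted among these 215 values. Of 519 values for single genes and for all genes together, 493 stayed, 24 moved and 2 reversed, namely Psmb10 in mock over WT at log2 -0.30 on the median over cells and -0.043 as a mean of log2 values. The counts past 1.5-fold are 0 to 6 genes and so move easily. The cause was not tested unless the alternative itself shows it (fewer cells or genes, a higher fold). Library totals gave 2 subunit genes lower with let-7, 2 higher with miR-294 and 2 lower in mock over WT, and TMM factors gave 2 lower with let-7 and 2 higher with miR-294. The median over cells gave 3 lower with let-7, 3 higher and 0 lower with miR-294, and 3 higher and 2 lower in mock over WT. The mean of log2 values gave 2 higher and 7 lower with let-7, 4 higher and 0 lower with miR-294, and 3 lower in mock over WT. A pseudocount of 10 gave 0 lower in mock over WT. The first run of each cell gave 3 lower with let-7 and 0 lower in mock over WT, and cells of 1 run gave 0 higher and 2 lower with let-7 and 3 lower with miR-294. Without the filter on low counts 2 were lower with miR-294. A fold of 2 left 0 higher and 0 lower with let-7 and 3 higher and 0 lower in mock over WT. With near-identical cells kept apart 2 were lower with let-7. Relative to the median of all genes 6 were lower with let-7, 6 higher with miR-294, and 3 higher and 4 lower in mock over WT. Among genes averaging 100 counts or more 0 were higher with let-7, 0 higher and 0 lower with miR-294, and 0 lower in mock over WT. Shares of all genes are given above for this setting, for ratios relative to the median of all genes and for the mean of log2 values. For the other settings they are not given, so those counts are no result about the subunit genes. With a fold of 2, 5 of the shares of all genes moved as well and 1 stayed. Outside the 50 highest genes the summed level was 1.26% in mock, 1.27% in WT and 1.5% in miR-294 cells. The let-7 level stayed within its spread (SD 0.214) of the main median of 0.896%, so that it was still the lowest. The correlation of α and β ring sums in 16 WT cells was 0.44 as Pearson's on log2 values and 0.31 from normalized counts. 4 alternatives were chosen after seeing the data. Leaving out the 3 cells titled MIR_294, run for the differences between conditions, moved no value past these limits. No cell fell below the thinned total. No paired analysis was possible because the replicate numbers only name cells of different captures and no test between conditions was made.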
